A study of Rattus norvegicus with 36 samples.

Results

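Bile duct ligation was examined in livers of vitamin A deficient rats that had received no vitamin A. The comparison sets 5 ligated rats (VAD, BDL, vehicle) against 4 sham-operated rats (VAD, SHAM, vehicle), taken by their sample titles from a series of 36 rats with 1 liver array each. All 9 were male Wistar rats that were deficient before surgery and then received a daily ip injection, into the abdominal cavity, of vehicle. The sham rats therefore carry the deficiency and the injections as well, and the comparison shows what ligation added to them. The series asked how lack of vitamin A bears on the liver when bile flow is blocked, and it also holds vitamin A sufficient (VAS) rats and rats given retinyl-palmitate (VITA), each again with 5 ligated and 4 sham rats. Ages, doses, days between surgery and sampling and the make-up of the vehicle are not named in the labels. The labels call the replicates biological, so the spread between arrays is that between rats.

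Tying off the common bile duct holds bile acids back in the liver, where they injure hepatocytes, make bile duct cells multiply and draw in leukocytes. Hepatic stellate cells, which store most of the body's vitamin A as retinyl esters, lose that store in such injury and turn into myofibroblasts that lay down collagen. Retinoic acid, the active form of the vitamin, works through the nuclear receptors RAR and RXR, and RXR is also the partner of the bile acid receptor FXR and of the receptors that switch on drug-metabolising enzymes.

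The arrays (Illumina RatRef BeadChips) give a brightness for each probe. Levels below are log2 intensities after background correction and quantile normalisation. A change is the mean of the 5 ligated rats minus the mean of the 4 sham rats, with its standard error (SE) and limma's two-sided p adjusted by Benjamini and Hochberg over 9314 genes, and a gene is said to have risen or fallen where that p was under 0.05. Between 35.6% and 38.1% of probes were detected on ligated and 29.2% to 33.7% on sham arrays (detection p under 0.01). Where no array of a group detected a gene, its level there is only a bound and the change is given as "at least" a fold. Principal component 1 carried 62.7% of the variance of the 9 arrays and separated the groups, with ligated rats between -48.4 and -27.4 and sham rats between 42.4 and 45.4. The second held 12.1% and followed the slide. Slide 1 held ligated replicate 1 and sham replicates 1 and 2, slide 3 ligated replicates 4 and 5 and sham replicates 3 and 4, and slide 2 ligated replicates 2 and 3 with no sham rat of this comparison.

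The tissue read as liver in both groups. The plasma protein genes Alb, Tf, Ahsg and Hpx stood between 14.79 and 14.94 in sham rats and between 14.84 and 14.96 after ligation, and none of them passed the test. Of the 7 hepatocyte markers tested, Ttr and Apoh fell (-0.63 and -0.25, adjusted p = 0.0025 and 0.021; neither passed without slide 3). Saturation at those levels was not tested. Cell type markers that were tested summed to 211597 to 229580 (linear intensity) for 7 hepatocyte genes in sham and 178434 to 224511 in ligated rats. The sums rose out of the sham range for 5 stellate cell genes (1414 to 1705 against 7971 to 13098), 4 bile duct cell genes (359 to 704 against 2699 to 4377), 6 macrophage genes (1891 to 3028 against 5439 to 9440) and 2 neutrophil genes (127 to 217 against 748 to 1054). Sums overlapped for 4 T and NK cell genes (175 to 221 against 181 to 281) and 3 endothelial genes (597 to 827 against 341 to 625). Jchain, the 1 B and plasma cell gene tested, lay below its sham range (100 to 207 against 42 to 96) and did not pass. In whole tissue, a change in the number of cells of a type and a change in the RNA of each cell cannot be told apart, and this holds for every list below.

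Ligation changed 3769 of the 9314 genes tested, 40.5%. Of these 1936 rose (20.8%) and 1833 fell (19.7%), so a gene list should be read against those shares. In 2741 genes (29.4%) the ligated rats lay all above or all below every sham rat, and 2629 of them were called. Rises were larger than falls: 250 genes rose and 87 fell by at least 2 on the log2 scale, and 67 and 23 by at least 3. As many as 333 genes were detected on 0 of 4 sham and 5 of 5 ligated arrays (311 called), against 11 genes with the opposite pattern (11 called). Of the called genes 99.5% kept their direction within slide 1 and 99.7% within slide 3; since they were called on the same arrays, this is partly built in. The median change of all genes was -0.037. Under median scaling instead of quantile normalisation it was 0.121 and the split of called genes was 2472 higher to 782 lower (76.0% higher against 51.4%), so the balance of rises and falls depends on the scaling. The size of a change depends on it too: of 253 called genes that the naming rule picked, the fold moved by over 1.5 times in 74 with an offset of 50, in 119 under median scaling and in 146 in the authors' deposited values, mostly toward smaller changes (246, 233 and 234 of 253), and in 18 without slide 3. For Lox the change was 5.73, 4.54, 3.92 and 3.17 in the order quantile normalisation as used here, a larger offset, median scaling and the authors' deposited values.

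**Figure D1:**
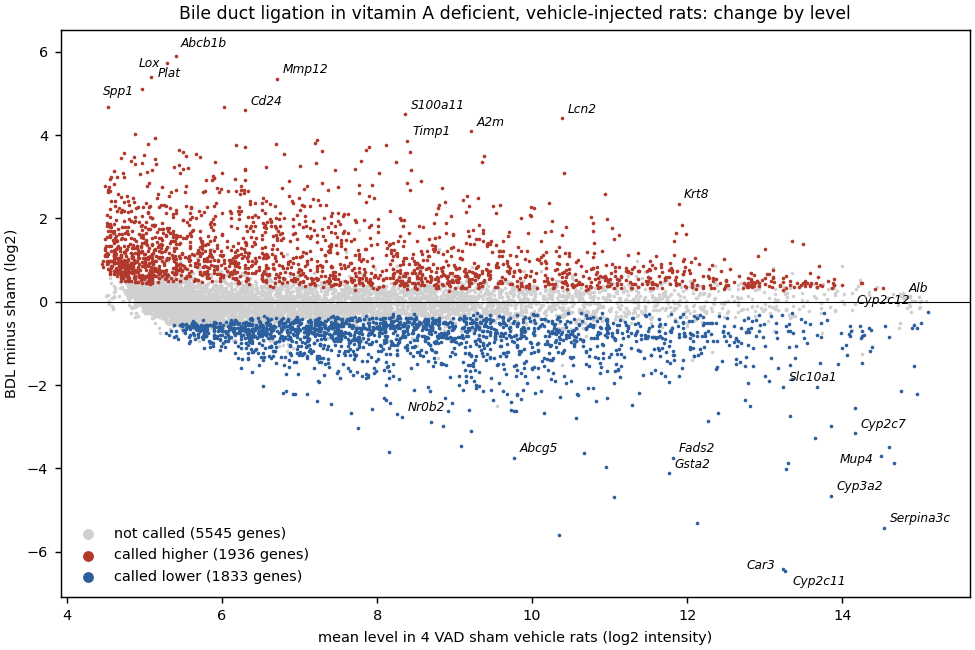
Each point is 1 of 9314 genes, with its mean log2 intensity in 4 VAD sham vehicle rats on the x axis and the log2 difference of ligated minus sham on the y axis; red and blue mark genes called higher (1936) and lower (1833), and genes undetected in a group are drawn at their measured difference. The largest rises start from low sham levels and the largest falls from high ones, which is partly built in, since the sham level is also the value subtracted.

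The genes that rose most came from several cell types. Abcb1b, a drug efflux pump of the canalicular and other membranes, stood at 5.30, 4.85, 6.15 and 5.29 in the sham rats and 11.16, 10.93, 11.97, 10.98 and 11.47 in the ligated rats. It rose 59.9-fold (5.90, SE 0.42, adjusted p = 1e-12). The ligated rats lay within about 1 unit of each other and far above every sham rat, and the ligation effect was nearly as large in VAS vehicle (5.66) and VAD VITA rats (5.84). Plat, the tissue plasminogen activator, was detected on 0 sham and 5 ligated arrays and rose at least 26.4-fold (adjusted p = 2.1e-12), from 5.08 ± 0.29 to 10.47 ± 0.26 (mean ± SD, n = 4 and 5). Rgs4, which shortens signals of G protein coupled receptors, rose at least 10.9-fold (adjusted p = 1.3e-12). Fabp4, a fatty acid carrier of adipocytes, macrophages and endothelium, rose by 4.68, from 6.02 ± 0.34 to 10.70 ± 0.41 (adjusted p = 2.1e-12). Cyp2c55, of the Cyp2c family of P450 enzymes, rose by 3.88 (adjusted p = 6.9e-12), and its fitted effect in VAS vehicle rats, from an undetected sham level, was 3.91.

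The largest falls were in hepatocyte genes. Cyp2c11, the main male-specific P450 of rat liver, stood at 13.47, 13.08, 12.93 and 13.56 in the sham rats and 5.30, 6.80, 6.61, 8.78 and 6.50 in the ligated rats, a change of -6.46 (SE 0.48). Car3, a carbonic anhydrase abundant in male liver, stood at 13.51, 13.60, 12.98 and 12.85 in the sham rats and 5.27, 5.98, 7.02, 9.20 and 6.63 in the ligated rats, and ligated replicate 4 was the highest of its group in both genes. Without that rat the change of Car3 was -7.01 instead of -6.41. Serpina3c, a serine protease inhibitor of the Serpina3 family, stood at 14.64, 14.26, 14.58 and 14.68 in the sham rats and 7.26, 7.98, 9.27, 11.40 and 9.69 in the ligated rats, which is a change of -5.42 (adjusted p = 2.8e-12). Its ligation effect was only -0.33 in VAS vehicle and -0.78 in VAD VITA rats (adjusted p of the difference 7.2e-07 and 1e-05). No ligated rat reached the sham range in these 3 genes, but the ligated rats differed more among themselves than the sham rats did. Aspg, an asparaginase, fell by 3.47 (adjusted p = 1.1e-09) against -0.58 in VAS vehicle rats.

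**Figure D2:**
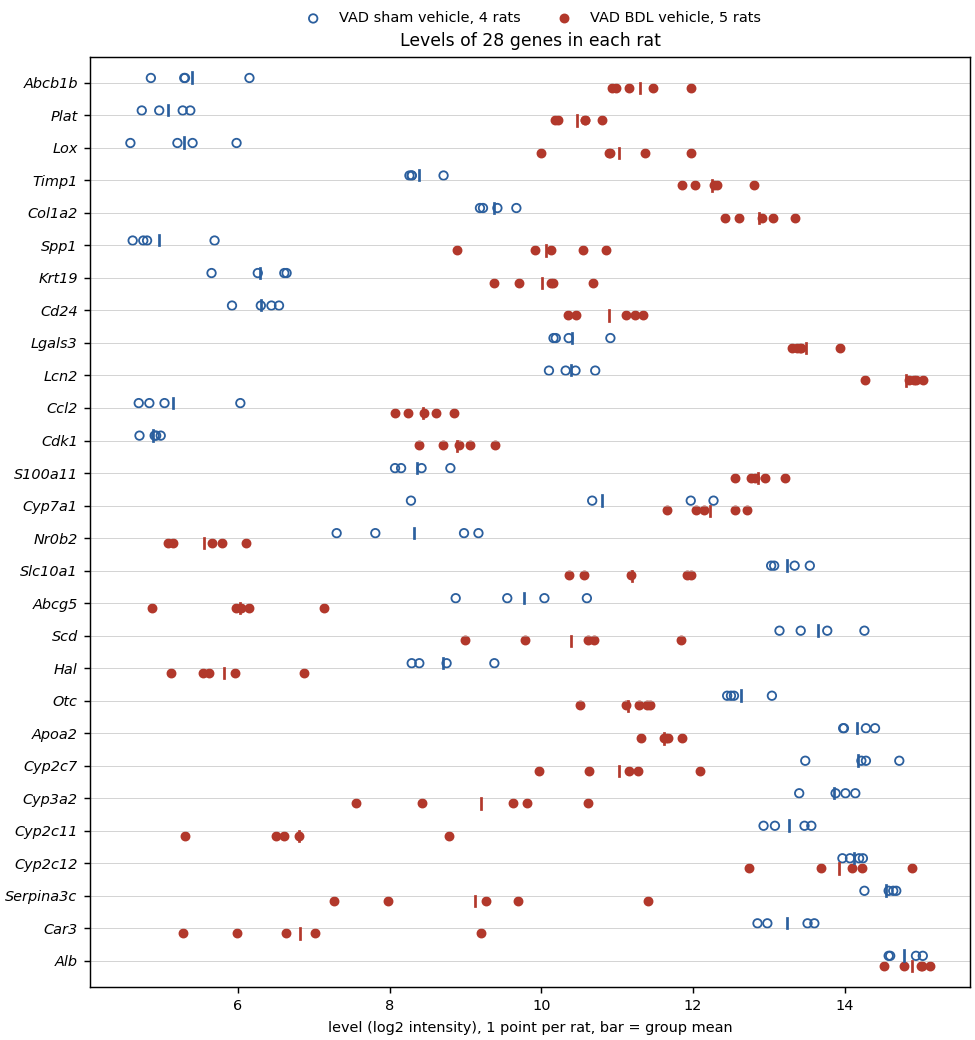
Log2 intensity of 28 genes in each rat: open circles are the 4 VAD sham vehicle rats, filled circles the 5 VAD BDL vehicle rats, and short bars the group means. The groups are apart in most genes shown and overlap in Cyp7a1, Cyp2c12 and Alb.

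Genes of the scar matrix that were tested rose almost without exception. All 5 fibrillar collagens tested rose (median 3.09), as did 6 of 6 other collagens (2.03). So did 12 of 13 basement membrane genes (1.43, or 1.26 with undetected genes at their bound) and 16 of 20 elastic fibre and matricellular genes (1.62, or 1.57), against 20.8% of all genes. For all 5 fibrillar and all 6 other collagens the effect was higher than in VAS vehicle rats, a difference that 4.25% of all genes showed. Col1a2, a chain of type I collagen, stood at 9.42, 9.23, 9.67 and 9.19 in the sham rats and 13.35, 12.60, 12.42, 13.05 and 12.91 in the ligated rats. The highest sham rat was more than 2 units below the lowest ligated rat, and the change was 3.49 (SE 0.26, adjusted p = 2.1e-12). Among basement membrane genes Col4a1 rose most (3.55, SE 0.25, adjusted p = 7.8e-13), while Lamb3 did not pass (-0.23, adjusted p = 0.45). Postn (periostin, made by activated fibroblasts) rose at least 5.9-fold and Lum (lumican, which spaces collagen fibrils) at least 6.01-fold; both were undetected on every sham array and detected on every ligated one. Ccn2, a matricellular protein induced by TGF-beta, rose by 3.35 (adjusted p = 9.3e-07). Fibronectin, Fn1, was already at 13.75 in sham rats and did not pass (0.42, adjusted p = 0.19), except with the slide or the replicate number as a block (adjusted p = 0.017 and 0.014).

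The enzymes that modify, crosslink and cut the matrix moved with it. Of 18 collagen processing and crosslinking genes 15 rose (median 0.84, or 0.76 with bounds). Lox, the lysyl oxidase that starts crosslinks, stood at 5.20, 5.40, 5.98 and 4.58 in the sham rats and 11.97, 10.91, 9.99, 11.37 and 10.89 in the ligated rats. Plod2, which hydroxylates telopeptide lysines, rose by 3.32 (SE 0.22, adjusted p = 4.5e-13), and Loxl1 by 3.52 (adjusted p = 4.8e-11). Serpinh1 and Bmp1, the collagen chaperone and a procollagen C-proteinase, did not pass (0.02 and -0.22). In VAS vehicle rats the ligation effect on Lox was 0.81 and on Plod2 0.70, and both differed from the deficient rats (adjusted p of the difference 3.5e-06 and 1.8e-06).

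Of 11 metalloproteinases and ADAMs 6 rose (median 0.53, or 0.38 with bounds). They were led by Mmp12, the elastase of macrophages, at 5.35, 6.46, 7.54 and 7.51 in the sham rats and 12.70, 11.93, 11.19, 12.31 and 12.20 in the ligated rats. Mmp3, stromelysin, rose at least 1.9-fold (adjusted p = 2.3e-07) from undetected on every sham array. The gelatinase Mmp9 did not pass (-0.20, adjusted p = 0.26). Among inhibitors and the plasminogen system 9 of 13 rose and 2 fell. Timp1, the tissue inhibitor of metalloproteinases, stood at 8.29, 8.26, 8.29 and 8.71 in the sham rats and 12.81, 12.32, 11.85, 12.03 and 12.27 in the ligated rats. A2m, an inhibitor that traps many proteases, rose by 4.10 (SE 0.93, adjusted p = 0.00058), with sham rats at 10.45, 9.51, 8.46 and 8.42 and ligated rats at 14.11, 13.06, 12.28, 14.50 and 12.59. The liver-made Serpinf1 fell by 0.93 (adjusted p = 2.8e-05).

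The proximal promoters of several of these genes are shown because 2 of the metalloproteinase genes and Anxa2, a calcium-dependent membrane-binding protein that also rose, carry the same pair of motifs in the same order. Windows run from 250 bases before to 50 after the gene start (RefSeq, GRCr8), 5′ to 3′ on the gene's strand. Capitals mark TGANTCA, the site type that AP-1 (Fos and Jun) binds, and TATAAA, the TATA box, searched on both strands. Mmp12 lies at chr8:12866402-12866701, plus strand, Mmp3 at chr8:12925031-12925330, plus strand and Anxa2 at chr8:78986002-78986301, plus strand.
Mmp12: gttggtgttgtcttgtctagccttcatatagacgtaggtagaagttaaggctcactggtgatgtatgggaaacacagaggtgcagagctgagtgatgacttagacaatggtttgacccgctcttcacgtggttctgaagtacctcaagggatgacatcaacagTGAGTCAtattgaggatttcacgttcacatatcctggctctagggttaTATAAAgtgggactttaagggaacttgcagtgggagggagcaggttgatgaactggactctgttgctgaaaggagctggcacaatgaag
Mmp3: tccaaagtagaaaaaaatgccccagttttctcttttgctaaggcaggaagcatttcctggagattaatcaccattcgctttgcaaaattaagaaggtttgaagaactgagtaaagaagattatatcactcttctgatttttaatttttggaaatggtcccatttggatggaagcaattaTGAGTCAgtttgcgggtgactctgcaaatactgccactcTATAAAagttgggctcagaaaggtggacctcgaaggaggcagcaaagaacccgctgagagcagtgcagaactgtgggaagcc
Anxa2: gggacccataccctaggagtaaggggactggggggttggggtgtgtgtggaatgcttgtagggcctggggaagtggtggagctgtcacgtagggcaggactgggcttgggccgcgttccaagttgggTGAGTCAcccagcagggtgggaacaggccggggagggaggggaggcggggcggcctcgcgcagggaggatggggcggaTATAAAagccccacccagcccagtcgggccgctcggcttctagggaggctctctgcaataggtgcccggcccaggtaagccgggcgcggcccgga
TGANTCA starts 87, 71 and 123 bases before the gene start in Mmp12, Mmp3 and Anxa2, and TATAAA 39, 32 and 45 bases before it. TGANTCA was held by 7.33% of all 27457 windows, by 5.16% of those of the 6647 tested genes with a window, by 6.24% of genes called higher by 14.5% of the 179 that rose and by 9.52% of the 63 that fell by at least 2 on the log2 scale; TATAAA by 14.3%, 7.96%, 8.58%, 18.4% and 31.7%. A match of letters says nothing of binding. The mRNAs of the AP-1 members Fos (1.04, adjusted p = 0.063) and Jun (0.35, adjusted p = 0.4) did not pass, though Fos did under median scaling (0.68, adjusted p = 0.023) and without ligated replicate 3, 4 or 5 or sham replicate 1 (1.18 to 1.27).

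Stellate cell and myofibroblast genes were less uniform than the matrix they make. Of 13 tested, 9 rose and 2 fell (median 1.03, or 0.32 with bounds). Vim, the filament vimentin of mesenchymal cells, stood at 9.45, 9.88, 8.80 and 9.27 in the sham rats and 13.20, 12.82, 12.52, 12.71 and 12.30 in the ligated rats, a rise of 3.36 (adjusted p = 4e-11). Des (desmin, the stellate cell filament in rats) rose by 2.67 (adjusted p = 1e-10) and Tagln (transgelin of contractile cells) by 2.78 (adjusted p = 6e-08). Acta2 and Lrat have no probe under these names and were not analysed here.

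Ligands and receptors of the fibrotic signals changed in part. Of 25 TGF-beta, BMP and activin genes 6 rose and 3 fell, close to the background shares. Tgfb1 rose by 1.77 (adjusted p = 3.3e-06), Tgfb2 at least 2.03-fold and the activin antagonist Fst at least 2.99-fold (adjusted p = 4.5e-07). The hepatocyte activin subunit Inhbc fell by 1.26 (adjusted p = 3.8e-05). Pdgfa, a ligand for platelet-derived growth factor receptors, rose by 2.39 (SE 0.27, adjusted p = 6.1e-09). The growth hormone receptor Ghr fell by 1.99 (adjusted p = 1.9e-08) against -0.32 in VAS vehicle rats (difference adjusted p = 0.0011), and Igfals, which keeps insulin-like growth factors in the circulation, fell by 2.03 (adjusted p = 4.6e-05). Igfbp7 rose by 1.99 (adjusted p = 2.8e-11).

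Bile duct cell genes rose in part. Of 19 cholangiocyte and progenitor genes 9 rose, none fell and 10 did not pass (median 0.59, or 0.57 with bounds). Spp1, osteopontin, stood at 4.75, 4.61, 5.69 and 4.80 in the sham rats and 10.85, 8.89, 9.91, 10.55 and 10.13 in the ligated rats, with every ligated rat more than 3 units above the sham rats. Cd24, a surface glycoprotein of progenitor cells, rose by 4.60 (adjusted p = 3.2e-13), the duct keratin Krt19 by 3.72 (adjusted p = 6.6e-10) and Epcam, an adhesion molecule of ducts, by 2.69 (adjusted p = 8.2e-10). The duct keratin Krt7 was undetected in sham rats and rose at least 1.25-fold (adjusted p = 4.1e-06). The changes of Krt19 and Epcam were smaller in the other settings, with no difference called (2.71 and 1.68 in VAS vehicle, 3.15 and 2.13 in VAD VITA rats), whereas Spp1 differed from both (1.58 and 2.29, difference adjusted p = 0.001 and 0.019). The bile duct water channel Aqp1 did not pass (0.00, adjusted p = 1). Krt8, a keratin that hepatocytes and duct cells share, rose by 2.35 (adjusted p = 2.9e-10), and the hepatocyte gap junction gene Gjb1 fell by 1.53 (adjusted p = 1.8e-06).

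Macrophage and neutrophil genes rose broadly. Of 28 monocyte and macrophage genes 24 rose (median 1.67), and of 10 neutrophil genes 9 (1.79). Besides Mmp12, Trem2, a lipid-sensing receptor of scar-associated macrophages, rose at least 10-fold (adjusted p = 3.6e-10). Lpl, lipoprotein lipase, stood at 8.37, 8.31, 8.41 and 8.60 in the sham rats and 12.96, 12.15, 11.03, 12.04 and 11.95 in the ligated rats. Cd14, the co-receptor for endotoxin, did not pass (0.16, adjusted p = 0.66) but fell in VAS vehicle rats (-1.31, adjusted p = 0.00048; difference adjusted p = 0.01). Lcn2, an iron-scavenging protein of neutrophils and injured epithelium, stood at 10.10, 10.32, 10.45 and 10.71 in the sham rats and 14.27, 14.92, 14.85, 14.94 and 15.03 in the ligated rats, a rise of 4.41 (SE 0.72, adjusted p = 6.4e-06). S100a8, a neutrophil calcium-binding protein, rose by 2.68 (adjusted p = 1.3e-05). Apoe, made by macrophages and by hepatocytes, stood at 14.90 and 14.93.

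Chemokine and receptor genes rose more often than they fell. Of 22 chemokine and receptor genes 14 rose and 2 fell (median 1.43, or 0.81 with bounds). The monocyte chemokine Ccl2 stood at 4.69, 4.83, 5.03 and 6.03 in the sham rats and 8.24, 8.07, 8.85, 8.45 and 8.61 in the ligated rats and was detected on 0 sham and 5 ligated arrays. Cx3cl1, fractalkine, rose by 2.55 (adjusted p = 1.8e-09) and Cxcl16 by 2.38 (adjusted p = 9.7e-08). Cxcl11, a ligand of the T cell receptor Cxcr3, fell by 1.94 (adjusted p = 2.6e-07), and its relative Cxcl9 did not pass here (-0.80, adjusted p = 0.072; called with the slide as a block, adjusted p = 0.017, with only the groups compared, 0.047, and without ligated replicate 3, 0.02) but had an effect of 1.43 in VAS vehicle rats (difference adjusted p = 0.0039). Tnfrsf12a, the receptor for the cytokine TWEAK, rose by 2.71 (adjusted p = 3.2e-06).

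The lymphocyte and interferon lists stayed near the background. Of 10 T and NK cell genes 2 rose and 1 fell. Cd8a, of cytotoxic T cells and some dendritic cells, stood at 5.78, 5.93, 5.28 and 5.41 in the sham rats and 9.37, 7.41, 7.23, 7.71 and 7.61 in the ligated rats, while Gzma, a granzyme of cytotoxic cells, fell by 1.27 (adjusted p = 0.00049), though not under median scaling (-0.35, adjusted p = 0.11). The markers Cd3g, Lck, Nkg7 and Klrd1 did not pass. All 5 class II antigen presentation genes rose (median 1.93), with Cd74, the invariant chain, up by 2.06 (adjusted p = 4.7e-07). The class I and immunoproteasome list had 6 rises and 1 fall among 18 genes, and B2m stood at 15.01 and 15.03. Of 18 interferon-stimulated genes 2 rose and 2 fell. Gbp2, a guanylate-binding protein, rose by 1.68 (adjusted p = 0.0011) and Bst2, tetherin, fell by 1.26 (adjusted p = 2.3e-05).

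Most cell cycle genes that were tested rose. Of 26 G2/M and mitosis genes 24 rose and 1 fell (median 1.68, or 0.99 with bounds), and of 24 DNA replication and G1/S genes 20 rose (0.91, or 0.55). The lists hold 41 and 36 genes, of which 36 and 32 have a probe. The others with a probe were detected on too few arrays. A gene detected only on ligated arrays could pass the filter through them, so the share of rises is partly built in, here and in other lists. Cdk1, the kinase that starts mitosis, stood at 4.92, 4.98, 4.70 and 4.90 in the sham rats and 9.06, 8.70, 9.39, 8.92 and 8.39 in the ligated rats and was detected on 0 sham and 5 ligated arrays. It rose at least 8.82-fold (adjusted p = 4.4e-10), its partner Ccnb2 (cyclin B2) at least 7.56-fold and the spindle midzone protein Prc1 at least 5.67-fold. Per rat, the median of the G2/M list over its sham mean was 1.65, 1.58, 1.73, 1.52 and 1.60. Of the replication genes, Pcna, the sliding clamp, rose by 1.67 (adjusted p = 1.5e-08), Mcm6, of the replicative helicase, by 2.37 (adjusted p = 0.00017) and Rrm2, of ribonucleotide reductase, by 2.76 (adjusted p = 1e-05). Mki67 did not pass (0.20, adjusted p = 0.41; 0 of 4 sham and 3 of 5 ligated arrays detected it). Aurkb fell by 0.61 (adjusted p = 0.027), but its probes were called in opposite directions, and the call was lost without ligated replicate 1 (-0.47, adjusted p = 0.11), sham replicate 1 (-0.60, adjusted p = 0.057) or sham replicate 3 (-0.33, adjusted p = 0.23).

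The promoters of 3 of the mitosis genes are shown because they share letters that most of their list holds. Capitals mark CCAAT, the site of the factor NF-Y, and TTTGAA, the core of the cell cycle homology region, on either strand, in windows of the same kind. Cdk1 lies at chr20:19265043-19265342, plus strand, Ccnb2 at chr8:79981609-79981908, minus strand and Prc1 at chr1:143659231-143659530, plus strand.
Cdk1: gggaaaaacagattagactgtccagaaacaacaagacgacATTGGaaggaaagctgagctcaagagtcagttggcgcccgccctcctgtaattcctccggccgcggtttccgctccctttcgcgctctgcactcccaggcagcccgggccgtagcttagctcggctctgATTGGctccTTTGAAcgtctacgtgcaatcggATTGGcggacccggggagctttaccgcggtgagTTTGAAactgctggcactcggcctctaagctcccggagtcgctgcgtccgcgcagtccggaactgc
Ccnb2: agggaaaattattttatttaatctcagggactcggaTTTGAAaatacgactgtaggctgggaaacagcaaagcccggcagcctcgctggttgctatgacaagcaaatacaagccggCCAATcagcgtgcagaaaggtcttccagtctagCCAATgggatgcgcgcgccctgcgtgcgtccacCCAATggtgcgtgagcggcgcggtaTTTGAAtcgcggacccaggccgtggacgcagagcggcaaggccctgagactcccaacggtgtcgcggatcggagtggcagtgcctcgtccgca
Prc1: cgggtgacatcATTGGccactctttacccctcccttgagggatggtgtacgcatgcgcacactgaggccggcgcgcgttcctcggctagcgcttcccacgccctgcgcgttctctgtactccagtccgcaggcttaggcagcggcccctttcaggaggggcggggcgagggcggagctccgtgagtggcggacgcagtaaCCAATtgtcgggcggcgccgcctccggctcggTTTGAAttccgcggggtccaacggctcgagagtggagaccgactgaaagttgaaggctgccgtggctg
TTTGAA lies 16, 43 and 18 bases before the start of Cdk1, Ccnb2 and Prc1, with CCAAT on either strand 49, 68 and 50 bases before it. Of the 22 tested G2/M genes with a window, 17 (77.3%) held CCAAT, 17 held TTTGAA and 14 held both, against 38.8% and 12% of all tested genes. The replication list shows another pattern: of 18 genes with a window 10 (55.6%) held CCAAT, 1 held TTTGAA and 10 held TTTNGCGC, the letters of E2F sites, which 2.26% of all tested genes hold. Since nearly every tested gene of both lists rose, these shares describe the lists and not what sets risers apart.

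Genes of the cytoskeleton, of S100 and annexin proteins and of adhesion rose alongside. Of 31 cytoskeleton and S100 genes 27 rose (median 1.71) and of 20 integrin and adhesion genes 15 rose and 1 fell (1.00, or 0.75 with bounds). S100a11, a calcium-binding protein of epithelia and fibroblasts, stood at 8.07, 8.15, 8.42 and 8.80 in the sham rats and 13.21, 12.82, 12.95, 12.55 and 12.77 in the ligated rats. Anxa2 rose by 3.81 (SE 0.24, adjusted p = 3.2e-13), S100a6 by 3.64 (adjusted p = 9.9e-12) and Cd44, the hyaluronan receptor, by 3.33 (adjusted p = 2.5e-10). For 14 of the 31 cytoskeleton and S100 genes the effect was higher than in VAS vehicle rats, where 4.25% of all genes showed such a difference. Actb, often used as a reference gene, rose by 1.26 (adjusted p = 1.3e-06). Cytosolic ribosomal protein genes rose by less but widely: 28 of 40 rose (median 0.41), against 0 called of the same 40 in VAS vehicle rats (17.4% of all genes) and 13 in VAD VITA rats (24.3% of all genes). The difference from VAS vehicle rats passed the test for 2 of the 40.

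**Figure D3:**
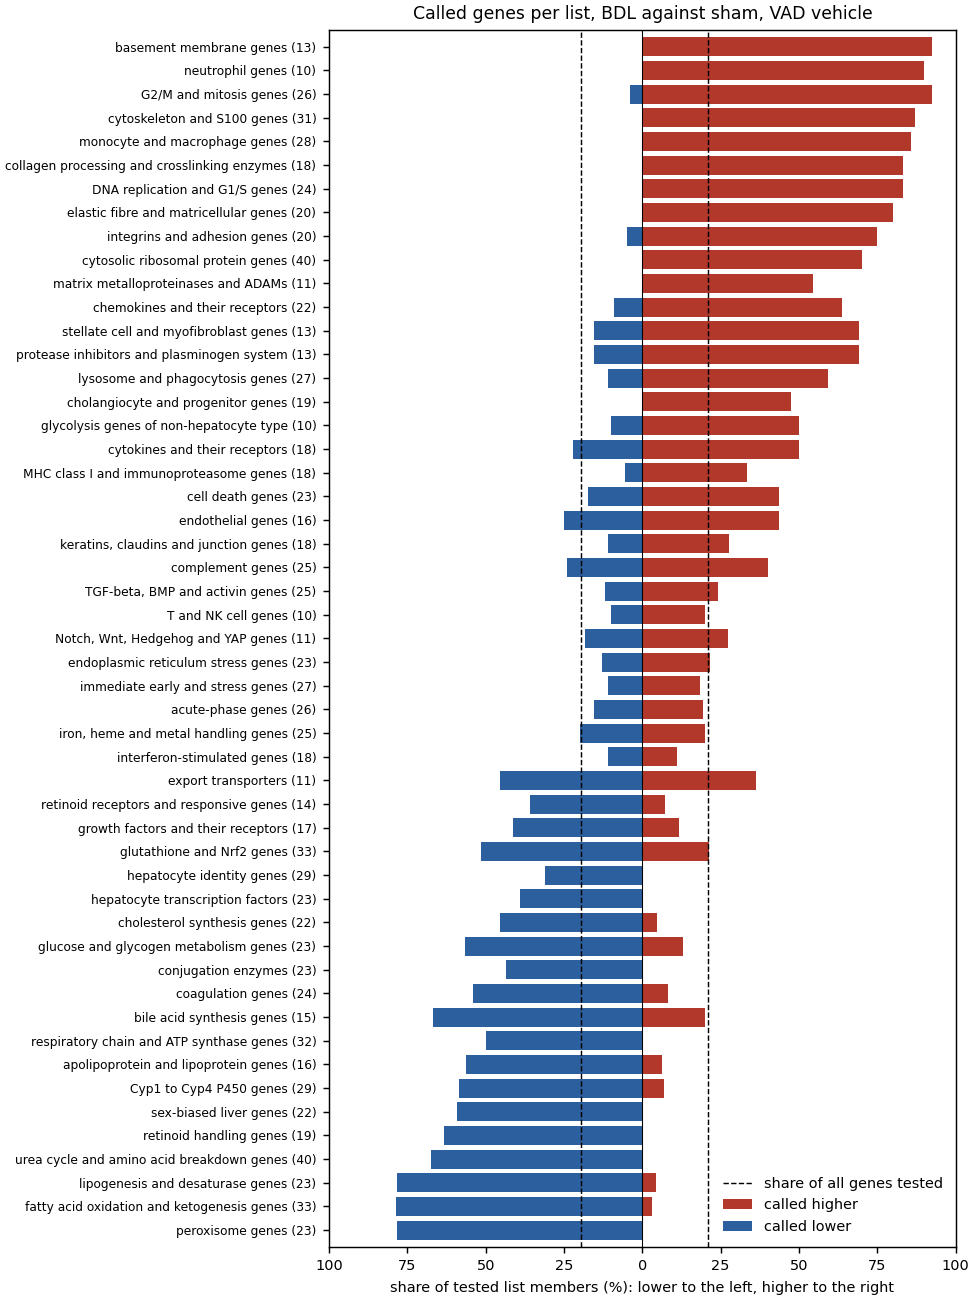
Share of the tested members of each list with at least 10 members tested that were called higher (red, to the right) or lower (blue, to the left), with the number tested in brackets; dashed lines mark the shares among all genes tested, 20.8% and 19.7%. Matrix, mitosis and leukocyte lists lie at the top, and peroxisome, fatty acid and amino acid lists at the bottom.

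Among the genes of hepatocytes, those of bile acid synthesis fell along the pathway but not at its entry. Cyp7a1, the rate-limiting enzyme, stood at 8.28, 12.27, 11.97 and 10.67 in the sham rats and 12.04, 12.55, 12.14, 11.66 and 12.71 in the ligated rats. The groups overlapped and sham replicate 1 was lowest by over 2 units. The change of 1.42 (SE 0.54, adjusted p = 0.036) was lost without sham replicate 1 (0.58, adjusted p = 0.35), and also without sham replicate 4 or ligated replicate 2, 3 or 5 (1.30 to 1.44). It did not pass either under median scaling, without a filter, with the replicate numbers as a block or with only these 9 arrays (adjusted p from 0.055 to 0.1). Cyp8b1, which directs the pathway to cholic acid, stood at 13.12 ± 0.48 and 12.43 ± 0.53 (-0.69, adjusted p = 0.46), against a change of -4.90 in VAS vehicle rats (difference adjusted p = 0.0061). Of 15 genes 10 fell and 3 rose (median -0.73). Akr1d1, the 5-beta-reductase, fell by 1.77 (adjusted p = 1e-07) and Acox2, the side chain oxidase, by 1.35 (adjusted p = 7.3e-05). Cyp7b1, the oxysterol hydroxylase, rose by 2.67 (adjusted p = 4.7e-05).

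The receptors that sense bile acids fell. Of 9 receptor and repressor genes 6 fell and none rose (median -0.94). Nr0b2 (SHP), which FXR induces and which represses bile acid synthesis, stood at 7.30, 8.98, 9.17 and 7.81 in the sham rats and 5.14, 5.79, 5.07, 5.66 and 6.11 in the ligated rats, so no ligated rat reached a sham level. Its effect was -2.76 against 0.56 in VAS vehicle rats (difference adjusted p = 0.00051). Nr1h4 (FXR) fell by 1.47 (adjusted p = 6.3e-05), Nr1i2 (the pregnane X receptor) by 1.05 (adjusted p = 4.6e-05), Hnf4a by 0.96 (adjusted p = 0.0012) and the partner Rxra by 0.94 (adjusted p = 4e-05). Under median scaling Hnf4a (-0.22, adjusted p = 0.097) and Rxra (-0.21, adjusted p = 0.098) did not pass. Nr1i3, the constitutive androstane receptor, did not pass (-0.69, adjusted p = 0.35).

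Uptake transporters fell and exporters split. Of 8 sinusoidal uptake genes 6 fell (median -0.81). Slc10a1, the sodium-dependent bile salt importer, stood at 13.03, 13.34, 13.54 and 13.07 in the sham rats and 11.18, 10.56, 10.37, 11.97 and 11.92 in the ligated rats, with ligated replicates 2 and 3 lowest. Slc22a8, an organic anion transporter, fell by 1.81 (adjusted p = 0.00027). Of 11 export genes 4 rose and 5 fell. Among the falls, those of Abcb11 (-0.50), Abcc2 (-0.93) and Abcg2 (-1.50) did not pass under median scaling (adjusted p = 0.53, 0.1 and 0.11). Each was also lost without ligated replicate 1. Besides Abcb1b, the basolateral exporter Abcc3 rose by 3.22 (adjusted p = 5.4e-12). Abcg5, part of the sterol exporter into bile, stood at 8.87, 10.04, 10.60 and 9.55 in the sham rats and 5.97, 6.04, 4.86, 7.13 and 6.15 in the ligated rats and fell by 3.74 (adjusted p = 1.7e-08), as it did in VAS vehicle rats (-3.71). Abcb4, the phospholipid exporter, did not pass (0.48, adjusted p = 0.2). Abcc4, Slc51a and Slc51b were detected on too few arrays to be tested.

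Lipid synthesis genes fell in nearly every step. Of 23 lipogenesis and desaturase genes 18 fell and 1 rose (median -1.33). Fads2, the delta-6 desaturase, stood at 11.64, 12.23, 11.88 and 11.51 in the sham rats and 7.62, 7.38, 8.56, 8.18 and 8.66 in the ligated rats. Scd, the stearoyl-CoA desaturase, fell by 3.26 (adjusted p = 5.2e-05) and the lipogenic regulator Thrsp fell as well (-2.99, adjusted p = 2.7e-06); in VAS vehicle rats their effects were 0.00 and -0.51, and that on Fads2 -0.62 (difference adjusted p = 0.014, 0.013 and 0.00052). Scd2, the isoform of other tissues, was the gene that rose (2.12, adjusted p = 1.4e-09). Cholesterol synthesis was lowered in part: 10 of 22 genes fell and 1 rose, with Tm7sf2, a sterol reductase, down by 1.54 (adjusted p = 4.9e-05), while Hmgcs1 did not pass (0.02). Of 16 lipoprotein genes 9 fell and 1 rose. Apoa2, an apolipoprotein of HDL, stood at 13.98, 14.28, 14.40 and 13.99 in the sham rats and 11.31, 11.67, 11.62, 11.65 and 11.86 in the ligated rats, and Apof, which inhibits lipid transfer, fell by 2.35 (adjusted p = 1.4e-09).

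Most genes of fatty acid oxidation and of the peroxisome fell. Of 33 fatty acid oxidation and ketogenesis genes 26 fell and 1 rose (median -0.86), and of 23 peroxisome genes 18 fell (-0.88). Acat1, the mitochondrial acetoacetyl-CoA thiolase, stood at 9.19, 9.28, 9.40 and 8.69 in the sham rats and 6.96, 7.0, 7.09, 7.86 and 7.18 in the ligated rats. Bdh1, which makes the ketone body 3-hydroxybutyrate, fell by 1.72 (adjusted p = 1.6e-08) and Hacl1, of peroxisomal alpha-oxidation, fell too (-2.20, adjusted p = 1.2e-07). Cd36, a fatty acid importer that macrophages also carry, was the gene of the first list that rose (1.03, adjusted p = 0.027), a call lost without slide 3 (0.48), ligated replicate 4 or 5 or sham replicate 3 (0.70 to 0.97). Of 32 respiratory chain and ATP synthase genes 16 fell and none rose, with a median of -0.28; the largest fall was that of Ndufa8, of complex I (-0.64, adjusted p = 0.0007). Acot1, a cytosolic acyl-CoA thioesterase, went the other way and rose at least 5.42-fold from undetected (adjusted p = 5e-08), with an effect of -0.03 in VAS vehicle rats (difference adjusted p = 0.00022).

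Of 40 urea cycle and amino acid genes 27 fell and none rose (median -0.83). Hal, the histidase that begins histidine breakdown, stood at 8.75, 8.29, 9.38 and 8.39 in the sham rats and 5.11, 5.54, 5.62, 6.87 and 5.96 in the ligated rats. Kmo, of the kynurenine pathway, fell by 2.08 (adjusted p = 1.7e-09) and Prodh2, a hydroxyproline dehydrogenase, by 2.08 (adjusted p = 4.1e-09); in VAS vehicle rats the effects were 0.07 and -0.76. Gls2, the liver glutaminase, fell by 1.91 (adjusted p = 7.5e-07). Within the urea cycle itself Otc fell by 1.49 (adjusted p = 5.7e-08), whereas Cps1, Ass1 and Arg1 did not pass (-0.17, -0.03 and -0.09). For 11 of the 40 genes the effect was lower than in VAS vehicle rats, where 3.67% of all genes showed such a difference. Of 23 glucose and glycogen genes 13 fell and 3 rose; Pklr, the liver pyruvate kinase, fell by 2.33 (adjusted p = 7.2e-05) and Pck1, which starts gluconeogenesis, did not pass (-0.21). Slc16a3, a lactate exporter of glycolytic cells, rose by 3.59 (adjusted p = 5.7e-10).

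Drug-metabolising enzymes fell unevenly. Of 29 P450 genes of families 1 to 4, 17 fell and 2 rose (median -0.86); Cyp2c55, which also rose, is not in that list. Cyp3a2, a male-predominant P450, stood at 13.40, 13.88, 14.14 and 14.01 in the sham rats and 7.55, 9.62, 9.81, 10.62 and 8.42 in the ligated rats, and Cyp2c7, which retinoids are known to induce, fell by 3.15 (adjusted p = 2.9e-12). The effect on Cyp2c7 was -0.23 in VAS vehicle and -0.86 in VAD VITA rats (difference adjusted p = 7.6e-07 and 0.00014). Cyp2c22, also known to respond to retinoic acid, rose by 2.37 (adjusted p = 3e-07; 0.96 without slide 3) and Cyp1b1, an extrahepatic P450, at least 2.43-fold. Of 23 conjugation enzymes 10 fell and none rose, led by Ces1d, a carboxylesterase that cleaves lipid esters (-3.62, adjusted p = 9.9e-06). Gsta2 and Gsta5, alpha class glutathione S-transferases, fell (changes of -4.11 and -4.01, adjusted p = 2.2e-11 and 9.3e-10). The secreted peroxidase Gpx3 and the epithelial Gpx2 rose by 2.81 and 2.78. Probes of such near-identical families (Cyp2c, Gsta, Mup) may share signal between members.

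The window of Cyp2c11 holds TATAAA 31 bases before the start, and that of Cyp3a2 the letters CAAAGTCCA of the HNF4 type 97 bases before it. They are shown as the windows of large falls; capitals mark those letters. Cyp2c11 lies at chr1:246174966-246175265, plus strand and Cyp3a2 at chr12:14343808-14344107, minus strand.
Cyp2c11: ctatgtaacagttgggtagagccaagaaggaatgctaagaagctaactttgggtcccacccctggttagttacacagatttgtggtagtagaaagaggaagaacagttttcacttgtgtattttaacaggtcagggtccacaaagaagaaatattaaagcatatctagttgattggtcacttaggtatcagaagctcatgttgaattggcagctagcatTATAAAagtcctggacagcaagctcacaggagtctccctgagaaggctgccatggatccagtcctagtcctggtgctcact
Cyp3a2: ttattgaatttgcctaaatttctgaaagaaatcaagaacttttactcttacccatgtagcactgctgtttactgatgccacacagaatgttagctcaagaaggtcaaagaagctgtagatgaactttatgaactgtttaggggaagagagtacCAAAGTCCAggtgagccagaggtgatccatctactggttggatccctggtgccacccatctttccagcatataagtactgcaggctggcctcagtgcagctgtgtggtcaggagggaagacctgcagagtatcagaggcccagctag
CAAAGTCCA was held by 0.436% of tested genes with a window, 0.968% of genes called lower and 6.35% (4) of the 63 that fell by at least 2, and TATAAA by 7.96%, 8.79% and 31.7%. The counts of CAAAGTCCA rest on few genes (29, 13 and 4), and no test was made.

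Of 22 sex-biased liver genes 13 fell and none rose (median -1.27). Among the falls were male-predominant genes, such as Cyp2c11, Car3, Mup4 (-3.69, adjusted p = 6.1e-13), a major urinary protein, and Obp3, which fell at least 5.28-fold to undetected on all 5 ligated arrays (adjusted p = 1.7e-06). Not every member fell: Cyp2c13 did not pass (-0.12), with a difference of -3.27 within slide 1 and 1.60 within slide 3. Without slide 3 its change was -1.62 (adjusted p = 0.048). Cyp2c12, the P450 found mainly in females, stood at 14.24, 14.19, 13.97 and 14.07 in the sham rats and 12.74, 13.69, 14.23, 14.10 and 14.89 in the ligated rats and did not pass (-0.19, adjusted p = 0.69). The ligated rats spread around a sham group that was high in every rat, and the difference was -1.48 within slide 1 and 0.47 within slide 3. In VAS vehicle and VAD VITA rats ligation raised Cyp2c12 by 2.82 and 2.94, both different from the deficient rats (difference adjusted p = 0.0001 and 0.00024). Prlr, the prolactin receptor, fell by 2.32 (adjusted p = 0.0017).

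Retinoid genes fell with the other hepatocyte genes. Of 19 retinoid handling genes 12 fell and none rose (median -0.89). The esterase Ces1d led them, followed by the retinol dehydrogenase Rdh7 (-2.63, adjusted p = 5.7e-06) and the alcohol dehydrogenase Adh4 (-1.74, adjusted p = 0.00018), on which ligation had an effect of 0.43 in VAS vehicle rats (difference adjusted p = 0.005). Rbp4, which carries retinol out of the liver, stood at 8.08, 8.42, 8.95 and 8.60 in the sham rats and 7.0, 7.25, 6.34, 7.15 and 7.37 in the ligated rats and fell by 1.49 (adjusted p = 0.00022), and its partner Ttr by 0.63 (adjusted p = 0.0025; -0.50 without slide 3, adjusted p = 0.056). Cyp26a1 and Cyp26b1, which degrade retinoic acid, were detected on 0 of 9 arrays. Of 14 receptors and responsive genes 5 fell and 1 rose (3 and 4 under median scaling), with Rxrg down by 1.55 (adjusted p = 1.7e-06).

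Plasma protein genes changed in part. Of 29 hepatocyte identity genes 9 fell and none rose (median -0.12), and the largest fall was in Pon1, a lipoprotein-bound esterase (-1.48, adjusted p = 1.6e-08). Of 26 acute-phase genes 5 rose and 4 fell (median 0.10, or -0.03 under median scaling), no more than the shares of all genes (20.8% and 19.7%). Besides A2m and Lcn2, Lbp, the carrier of endotoxin, rose by 2.59 (adjusted p = 5.9e-07), while the haptoglobin gene Hp and the fibrinogen gene Fgb did not pass (0.12 and 0.00). Of 24 coagulation genes 13 fell and 2 rose (median -0.45). F11, F12 and Proz, factors XI and XII and protein Z, fell by 1.31, 1.11 and 1.09 (adjusted p = 3.1e-06, 2.4e-05 and 1.4e-08). Of 25 complement genes 10 rose and 6 fell (6 and 7 without slide 3): C1qb, a macrophage product, rose by 1.89 (adjusted p = 2.7e-10), and C8g and Mbl1, made by hepatocytes, fell by 1.33 and 1.24 (adjusted p = 4.6e-09 and 5.1e-06). The difference from VAS vehicle rats was called for both (-0.38 and -0.21 there, adjusted p = 0.0026 and 0.018).

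Hepatocyte transcription factors fell more often than the 19.7% of all genes, and cell death genes rose more often than the 20.8%. The immediate early and endoplasmic reticulum stress lists lay near or below those shares. Of 23 hepatocyte factors 9 fell and none rose; after Nr1h4 the largest fall was that of Cebpa (-1.27, adjusted p = 0.00033), and Cebpb did not pass (-0.02). Of 27 immediate early and stress genes 5 rose and 3 fell, with Egr1 up by 1.99 (adjusted p = 0.0042) and Gadd45g down by 2.21 (adjusted p = 0.0031). Of 23 endoplasmic reticulum stress genes 5 rose and 3 fell, with Sel1l, which helps clear misfolded proteins, down by 1.26 (adjusted p = 7.9e-08). Of 23 cell death genes 10 rose and 4 fell, led by the pore-forming Bak1 (2.29, adjusted p = 1.7e-11). Hmox1, heme oxygenase 1, rose by 2.08 (adjusted p = 4.5e-06), about as in VAS vehicle rats (2.07).

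**Figure D4:**
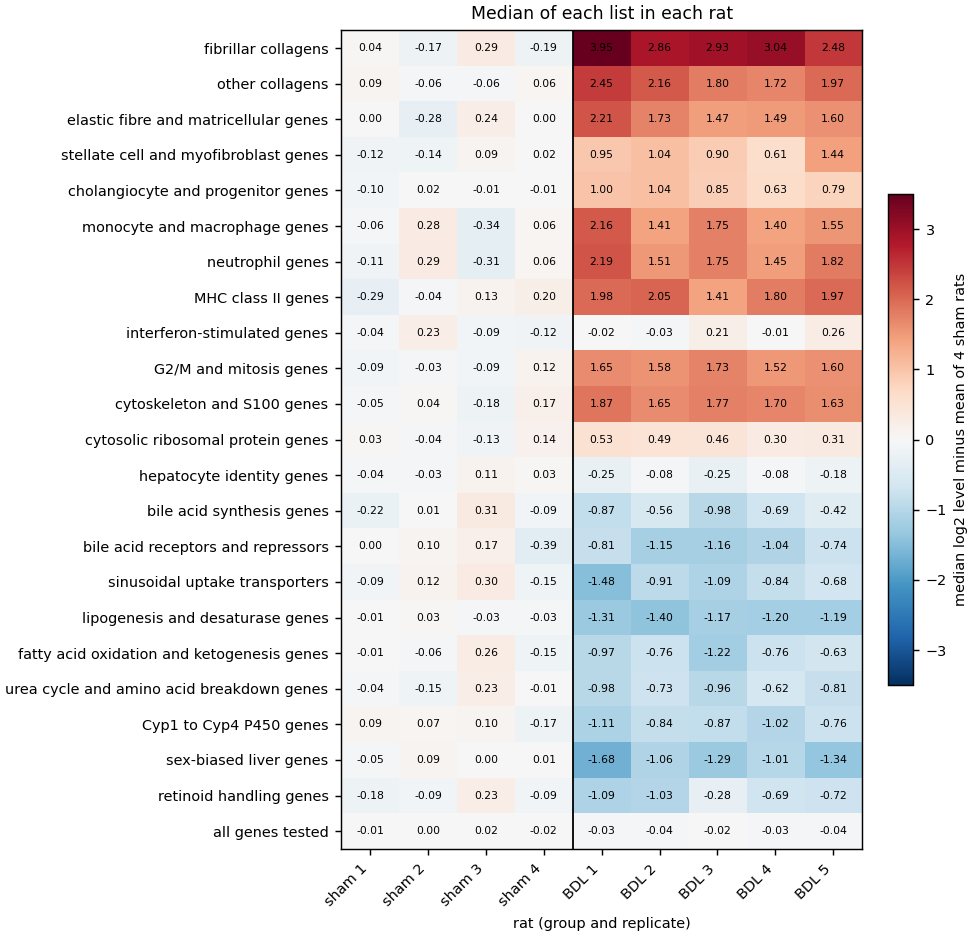
Median over the tested genes of a list of the log2 level minus the mean of the 4 sham rats, for each rat (columns) and 22 lists and all genes (rows); red is above and blue below the sham mean. Ligated replicate 1 has the largest matrix, macrophage and neutrophil medians and the lowest sex-biased and uptake transporter medians, and all genes together lie between -0.04 and 0.02.

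The medians of some lists differed among the ligated rats. The fibrillar collagen median over the sham mean was 3.95, 2.86, 2.93, 3.04 and 2.48 in ligated replicates 1 to 5, the macrophage median 2.16, 1.41, 1.75, 1.40 and 1.55 and the sex-biased median -1.68, -1.06, -1.29, -1.01 and -1.34. Replicate 1 stood at the far end in each of the 3 lists, while the lipogenesis median (-1.31, -1.40, -1.17, -1.20 and -1.19) hardly varied. In other lists another rat was at the far end. The fatty acid oxidation median was -0.97 in replicate 1 and -1.22 in replicate 3, and the stellate cell median 0.95 in replicate 1 and 1.44 in replicate 5. Replicate 1 was also the only ligated rat of slide 1, so rat and slide cannot be told apart. The erythroid median was 1.04, 0.14, 0.69, 0.04 and 0.21, again highest in replicate 1, and its part in the other lists was not tested. Red cell markers summed to 8036 to 26867 in sham and 20084 to 47316 in ligated rats; Hba-a1 and Hbb, the hemoglobin chains, did not pass (0.69 and 0.70), and Ahsp, which stabilises alpha hemoglobin, rose by 2.18 (adjusted p = 3.5e-05). Pancreas markers summed to 1347 to 3595 in sham and 795 to 1351 in ligated rats, mesothelial markers to 82 to 508 and 284 to 696, with Msln, mesothelin, up by 2.65 (adjusted p = 1.1e-05).

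Set beside the other ligated groups, the deficient rats without vitamin A had more genes past the threshold. Ligation changed 1617 genes in VAS vehicle rats (17.4%) and 2260 in VAD VITA rats (24.3%), against 3769 (40.5%). Of the 3769 genes 1253 were called in VAS vehicle rats too, 33.2% of the first and 77.5% of the second set, and 1800 in VAD VITA rats (47.8% and 79.6%). The difference between the effects themselves passed the test for 738 genes against VAS vehicle rats (7.92%, of which 396 higher, 4.25%, and 342 lower, 3.67%) and for 253 against VAD VITA rats (2.72%, of which 148 higher, 1.59%, and 105 lower, 1.13%). The 3 effects rest on separate rats. Without slide 3 the differences of Adh4, Cd14 and Scd from VAS vehicle rats no longer passed (adjusted p = 0.053, 0.065 and 0.051). Across the 9314 genes, which are not independent, the VAD vehicle effect correlated with the VAS vehicle effect at Pearson's r 0.71 and with the VAD VITA effect at 0.81.

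**Figure D5:**
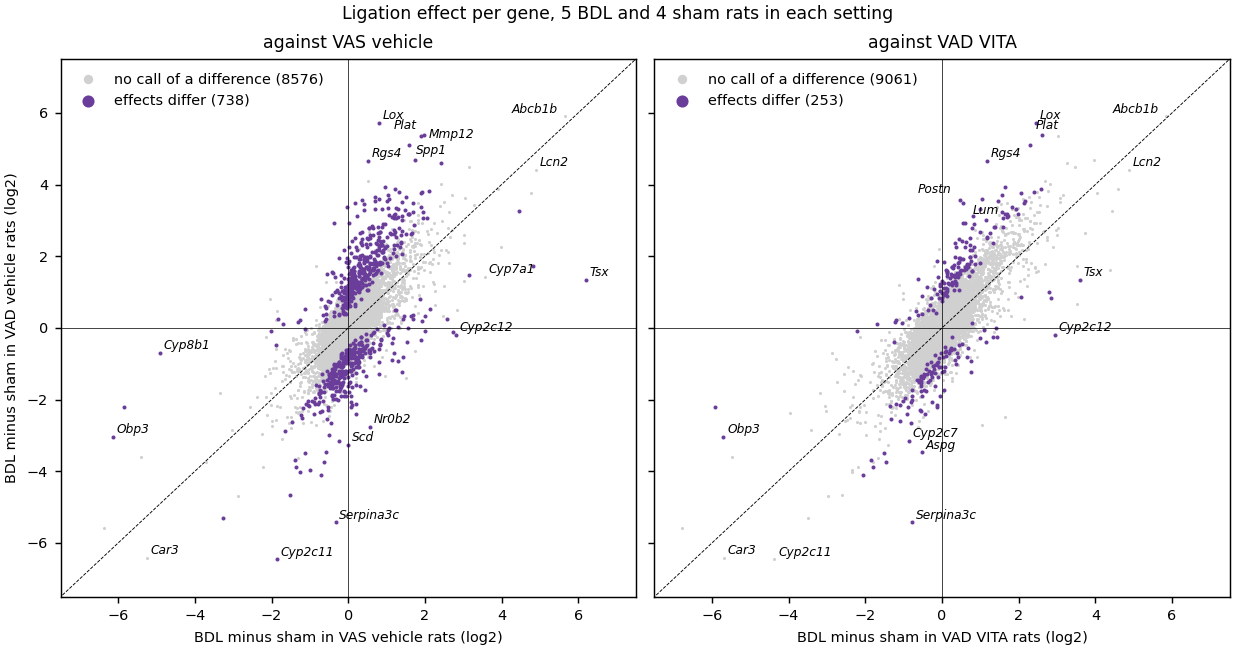
Each point is a gene, with the log2 change by ligation in VAS vehicle (left) or VAD VITA rats (right) on the x axis and in VAD vehicle rats on the y axis; purple marks genes whose effects differ (738 and 253) and the dashed line equal effects, with genes undetected in a group at their fitted value. Lox, Plat and Serpina3c lie far from the line toward larger effects in VAD vehicle rats, and Abcb1b, Lcn2 and Car3 near it.

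Tsx, a gene known from testis, responded less in the deficient rats. It stood at 7.17, 5.59, 6.10 and 6.67 in the sham rats and 7.36, 7.60, 8.86, 6.76 and 8.03 in the ligated rats, with overlapping groups, and rose by 1.34 against 6.20 in VAS vehicle rats, a fitted value from an undetected sham level, and 3.59 in VAD VITA rats (difference adjusted p = 7.2e-07 and 0.016). In the authors' deposited values the rise of 0.51 did not pass (adjusted p = 0.088).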

How the data were processed

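Intensities of 22523 probes with a detection p-value each were deposited, not normalized, per the file headers; biotin-labelled cRNA was hybridised, per the labels' protocols. The authors also deposited a table of normalized intensity on a linear scale, made by a method that the labels do not name. All 36 arrays (3 slides of 12) were background-corrected and quantile-normalised with limma's neqc (offset 16), kept where detected (p under 0.01) on at least 4 arrays, and reduced to the probe with the highest mean per gene, which left 9314 genes. Symbols were updated through the RefSeq table (GRCr8) for 74.7% of probes. A model of 8 group means was fitted (limma 3.58.1 in R 4.3.3), with contrasts for ligation and for its difference from VAS vehicle and VAD VITA rats, p-values adjusted by Benjamini and Hochberg. "At least" folds set the mean of the detected group against, per array, the higher of the lowest detected signal and the probe's own. The fit was tested on simulated data.

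The members and lists were chosen with earlier results of these data known. Genes named come from the 15 with the largest changes in each direction, up to 4 called and 3 uncalled per list, the 8 largest differences in each direction, markers and a panel; outside this rule, Acox2, Actb, Aqp1, Aurkb, Cd36, Cps1, Cxcl11, Cyp1b1, Cyp26b1, Cyp2c22, Fos, Gstt1, Jun, Il18, Il1a, Il6r, Ldha, Mbl1, Otc, Prlr, Scd2, Serpinf1, Slc40a1 and, for their spread, Pla2g2a, Rpl30 and Ubd were chosen after their values were seen. Promoter windows, matched by symbol, are RefSeq's; those of Lox, Plat and Cyp7a1 were not used here. Same-numbered ligated and sham rats deviated with correlations of 0.14, 0.17, -0.19 and 0.13, so the numbers do not pair the rats. Alternatives were a normexp offset of 50, median scaling, the authors' table, other filters, slide or replicate blocks, each probe taken separately, only the groups compared, and leaving out slide 3 or each rat. Depth has no counterpart on arrays; the number of rats limits precision. Some results are not reported here.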

Additional observations from a re-analysis of the deposited data

Results flagged for a closer look

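The ligation effect in VAD vehicle rats minus that in VAS vehicle rats was tested for each gene here, and fitted values of genes undetected in a group depend on the background correction. Among matrix and duct genes it was 4.93 for Lox, 2.62 for Plod2 and 3.52 for Spp1, so these rose more in the deficient rats. Among lipid genes it was -3.12 for Fads2, -3.26 for Scd, -2.48 for Thrsp and 3.40 for Acot1. In bile acid and retinoid genes it was 4.20 for Cyp8b1, -3.32 for Nr0b2 and -2.17 for Adh4. Other hepatocyte genes with a lower effect were Serpina3c (-5.09), Cyp2c7 (-2.92), Cyp2c12 (-3.02), Ghr (-1.67), C8g (-0.95) and Mbl1 (-1.03). The difference was 1.47 for Cd14, -2.23 for Cxcl9 and -4.86 for Tsx. Against VAD VITA rats it was -4.64 for Serpina3c, -3.13 for Cyp2c12, -2.29 for Cyp2c7, 2.82 for Spp1 and -2.25 for Tsx.

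In 20 of the 378 groups of rats looked at (189 genes, sham and ligated), 1 rat stood apart from the others of its group by most of the group's range; chance alone gives such a rat in about 1 group in 20. Ligated replicate 1 was that rat 7 times: it was highest in Cd8a (9.37, the others at 7.23 to 7.71) and Fabp4 (11.42, 10.38 to 10.62), and lowest in Lcn2 (14.27, 14.85 to 15.03), Hpx (14.50, 14.96 to 15.12), C8g (10.95, 11.53 to 11.58) and Aurkb (5.89, 6.57 to 6.67). In Gstt1 it stood at 7.63, the others at 8.36 to 8.56. Ligated replicate 4 was lowest in Ubd (8.53, 12.98 to 13.35) and Pdgfa (9.59, 10.27 to 10.47) and highest in Acat1 (7.86, 6.96 to 7.18). Among sham rats, replicate 3 was highest in Pck1 (14.47, 13.68 to 13.76), Otc (13.04, 12.45 to 12.54), Pdgfa (8.36, 7.63 to 7.72) and Loxl1 (5.73, 4.71 to 4.79). Sham replicate 4 was highest in Cyp7b1 (7.0, 5.62 to 5.83), Rrm2 (6.50, 4.68 to 4.92) and Timp1 (8.71, 8.26 to 8.29). Sham replicate 2 was lowest in Igfbp7 (10.75, 11.02 to 11.06) and Trem2 (4.81, 5.20 to 5.28, undetected), and sham replicate 1 in Hbb (11.58, 13.14 to 13.33).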

How the results depend on the processing

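The count of 3769 changed genes lay between 3173 (only these groups) and 4262 (slide as a block) in all settings run, and the counts without each rat in turn ran from 3365 to 3692. With the replicate number as a block, which does not pair the rats, the counts were 4091 for ligation, 852 for the difference from VAS vehicle and 299 for that from VAD VITA rats. Against VAS vehicle rats the count of 738 ran from 528 (median scaling) to 1086 (slide as a block), and from 546 to 757 without each rat in turn. Against VAD VITA rats the count of 253 was the least steady: 402 in the authors' deposited values, 460 with the slide as a block and 110 with only the groups compared, and 147 to 294 without each rat in turn, with 147 without ligated replicate 1 of the VAD vehicle rats. Median scaling gave 65.7% and 81.1% higher among the differences.

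Of 253 called genes that the rule named, 217 passed in the same direction under every setting and 36 were lost in at least 1; 230 held under median scaling, 238 without slide 3 and 243 to 249 without each rat in turn, and none changed sign. Without slide 3 called changes moved by over 1.5 times to 3.17 for A2m and 0.96 for Cyp2c22, which shrank, and to 3.37 for Epcam, 4.32 for Loxl1, 6.04 for Mmp12, 3.44 for Tagln, 3.11 for Ubd, -4.26 for Aspg, -7.47 for Car3, -3.85 for Cyp2c7, -4.91 for Gsta5 and -6.28 for Serpina3c, which grew. Of the 19 differences from VAS vehicle rats and 5 from VAD VITA rats that the text gives, 16 and 4 held in every setting that tested them; Adh4, Cd14 and Scd were lost without slide 3 and none changed sign. Tsx against VAD VITA rats was lost under median scaling (adjusted p = 0.068) and with only the groups compared (adjusted p = 0.094). Of 64 lists, 47 held in every setting. Under median scaling the growth factor list had 3 lower and 4 higher genes instead of 7 and 2, and the retinoid receptor list 3 lower and 4 higher instead of 5 and 1; without slide 3 the complement list had 6 higher and 7 lower instead of 10 and 6. The cause was not tested. A level on an array where a gene was undetected is only a bound, which limits every fold from such a group.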

Other observations

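Endothelial genes moved in both directions. Of 16 tested, 7 rose and 4 fell: the leukocyte adhesion molecules Icam1 and Vcam1 rose by 1.46 and 1.43 (adjusted p = 4e-06 and 0.0002), and Cav2, a caveolin, and Sparcl1, a matricellular protein of vessels, fell by 1.21 and 1.21 (adjusted p = 2.6e-05 and 0.00059). Of 27 lysosome and phagocytosis genes 16 rose and 3 fell, led by the protease Lgmn (2.26, adjusted p = 3.5e-12) and the macrophage membrane protein Cd68 (2.16, adjusted p = 2.2e-10). Of 10 glycolysis genes of other cell types 5 rose, among them the platelet-type phosphofructokinase Pfkp (2.31, adjusted p = 1.7e-09) and Aldoa (1.90, adjusted p = 3e-07), and Ldha fell by 0.69 (adjusted p = 0.00073).

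Of 18 cytokine and receptor genes 9 rose and 4 fell. Il18, released by macrophages, rose by 1.79 (adjusted p = 3.6e-10), and Il1a and the interleukin 6 receptor Il6r fell by 1.58 and 1.49 (adjusted p = 2.5e-05 and 4.7e-06). Of 33 glutathione and Nrf2 genes 7 rose and 17 fell, and Gstt1, a theta class glutathione S-transferase, fell by 1.59 (adjusted p = 1.1e-07). Of 25 iron, heme and metal genes 5 rose and 5 fell, close to the shares of all genes (20.8% and 19.7%). The iron exporter Slc40a1 rose by 1.23 (adjusted p = 3.2e-08), and Hamp, hepcidin, which blocks it, did not pass (-1.25, adjusted p = 0.14; 0.013 with only the groups compared).

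The genes that varied most among the ligated rats were chosen after their values were seen. Pla2g2a, a secreted phospholipase, stood at 6.14, 10.05, 7.03, 9.27 and 11.47 in ligated replicates 1 to 5 against 7.60 ± 1.21 in sham rats and did not pass (1.19, adjusted p = 0.35). Ubd, a ubiquitin-like protein induced by cytokines, stood at 13.22, 13.35, 13.17, 8.53 and 12.98 against 9.98 ± 0.42 (a change of 2.27, adjusted p = 0.0032, and 3.20 without ligated replicate 4), so that ligated replicate 4 lay below the other ligated rats by more than 4 units. Rpl30, a ribosomal protein gene, stood at 9.94, 9.62, 9.67, 12.05 and 12.06, low in the ligated rats of slides 1 and 2 and at the sham level of 12.06 in those of slide 3. Ligated minus sham within a slide was -2.33 on slide 1 and 0.22 on slide 3, so the sham rats of slide 1 were not low.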
